A study of Arabidopsis thaliana with 16 samples.

Results

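The ethanol effect described here is the mean change over both exposure lengths, estimated from 14 of the 16 RNA libraries of the series. Its members are 8 libraries of seedlings kept with ethanol vapour (EtOH) and 6 control libraries, which the labels call moc without spelling the word out. EtOH_1d (4 libraries) had ethanol for 1 d from an age of 13 d, and EtOH_3d (4 libraries) had it for 3 d from an age of 11 d. Their controls were moc_1d (3 libraries) and moc_3d (3 libraries). All were whole Arabidopsis thaliana seedlings on agar plates at 22 °C with 16 h of light and 8 h of dark, and no label gives a genotype or a dose of ethanol. The series title names freezing stress, but no label gives a cold step for these samples. The columns moc_1d replicate 1 and moc_3d replicate 3 hold equal counts for all 27416 genes, so 1 library stands under 2 labels, and both columns were left out. The labels do not state whether replicates were separate plates or cultures, so each p here reflects the spread among these libraries, which may be technical.

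Plants oxidise ethanol to acetaldehyde with alcohol dehydrogenase, then to acetate with aldehyde dehydrogenase, and acetyl-CoA synthetase joins acetate to coenzyme A. When sugar runs short, as in prolonged darkness, the kinase SnRK1 and bZIP transcription factors raise a known set of transcripts, the dark-inducible (DIN) and related genes, which sugar feeding lowers again. Light and the circadian clock act on many of the same transcripts.

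Total counts were 3695511 to 15943927 in the EtOH libraries and 5407735 to 11458250 in the moc libraries, and 3 counts were worth 0.188 to 0.812 CPM (counts scaled to an equal library size). Markers of shoot green tissue summed to 42700 to 48250 CPM in EtOH and 44730 to 47670 CPM in moc, and root markers to 1189 to 1510 CPM in EtOH and 1253 to 1430 CPM in moc. Flower markers reached 1.81 to 4.02 CPM in EtOH and 1.52 to 4.03 CPM in moc, and no seed marker passed the filter on low counts. In a principal component analysis EtOH_3d replicate 2, the library with the fewest counts, stood apart on the first component (12.9% of the variance). On the second component (11.5%) it was moc_3d replicate 1 that did, and counts of called genes are therefore also given without these 2 libraries. EtOH_3d replicate 1 lay farthest out on the third component (10.3%) and EtOH_3d replicate 4 on the fourth (9.08%).

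Ethanol raised a modest number of transcripts by small amounts. Of 18419 genes tested, 61 were higher (0.331%) and 8 lower (0.0434%) with EtOH at an adjusted p under 0.05, 69 in all (0.375%). The median log2 fold change of the 61 was 0.31, a level 1.24 times that of the controls, and their range was 0.16 to 0.82. No called gene reached a log2 fold change of 1 in size, and 11 reached 0.5. The 8 lower genes had a median of -0.28. Over all tested genes the median was 0.00, 9217 values were positive and 9202 negative, and 1435 genes had an unadjusted p under 0.05, where 921 are expected by chance. Without EtOH_3d replicate 2 and moc_3d replicate 1 the count was 41, without EtOH_3d replicate 1 alone it was 74, without EtOH_3d replicate 4 alone 58, and with the duplicated library kept as moc_1d replicate 1 it was 37. Of the 32 called genes named by rule, 16 lost their calls in that last fit, among them BXL2, GLX1, VTC4, COR28, FAF3 and MYB28 (adjusted p = 0.0547 to 0.196).

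**Figure D1:**
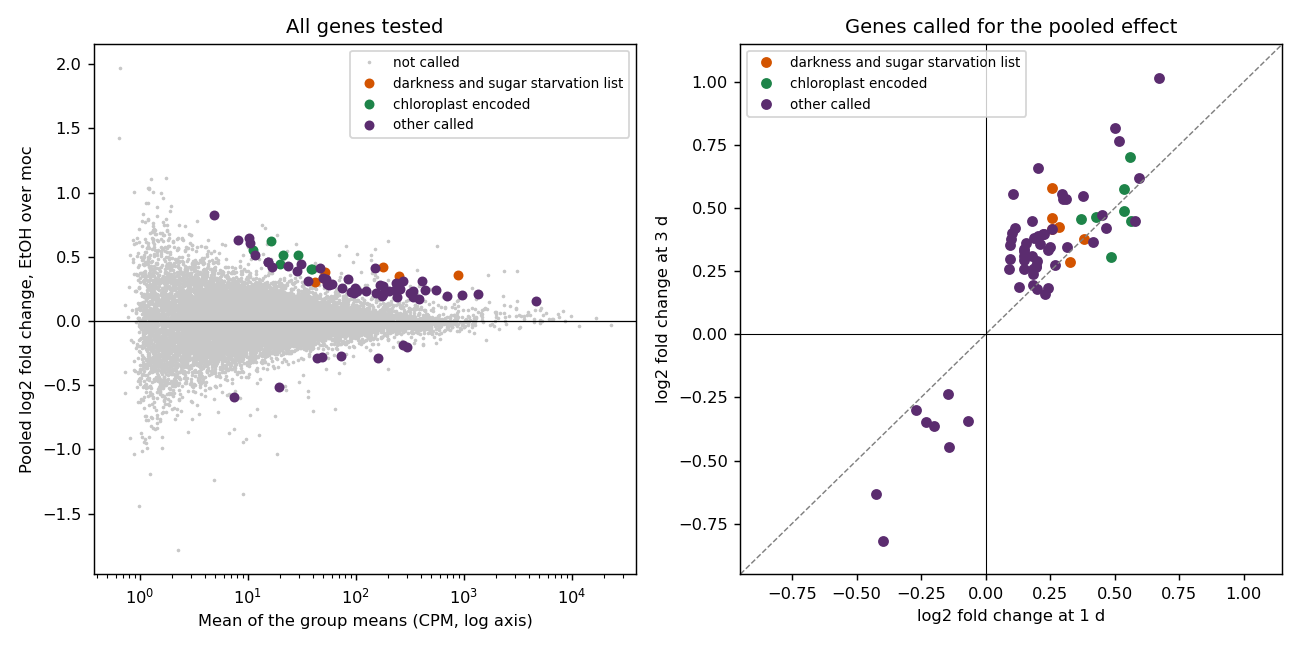
The left panel plots the pooled log2 fold change (EtOH over moc) of each of 18419 genes against the mean level in CPM on a log axis, with the 69 called genes coloured by group. The right panel plots the log2 fold change of these 69 genes at 3 d against that at 1 d, with a dashed line of equal change; all 69 lie in the quadrants of like sign, and 50 of the 61 higher genes lie above the line.

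The ethanol and control libraries of most called genes overlapped when the durations were set together. In 11 of the 61 higher genes all 8 EtOH libraries lay above all 6 moc libraries (0.114% of tested genes did so, called or not), and in 1 of the 8 lower genes all lay below (0.0434%). Within each duration taken alone, EtOH lay above moc in 32 higher genes (0.309% of tested genes) and below in 4 lower genes (0.163%). The 61 higher genes had a median log2 fold change of 0.24 at 1 d and 0.38 at 3 d, and the 8 lower genes -0.22 at 1 d and -0.36 at 3 d. Both sets of values share their libraries with the pooled estimate and are a description of it. Tested alone by edgeR, 3 d called 102 genes (0.554%), 81 higher and 21 lower. Of these, 39 were among the 69 pooled calls, whose fit used the same libraries. At 1 d edgeR called none (smallest adjusted p = 0.0908), with 795 genes at an unadjusted p under 0.05. At 1 d DESeq2 also called 0 genes and limma-voom 2. The test of the difference itself is given at the end.

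Among the 39 gene lists, the largest share of called members belonged to the darkness and sugar starvation genes. Of its 25 members, all tested, 6 were higher with EtOH (24%, against 0.331% of all genes) and none lower, and the estimates of all 25 were positive. The median log2 fold change of the list was 0.32, against 0.00 over all genes, and 17 members (68%) had an unadjusted p under 0.05 with a positive change, against 4.53% of all genes. The list was drawn up with earlier results of these data known. In a seedling sample, more RNA per cell and more cells that carry a transcript cannot be told apart, here or in the results that follow.

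The smallest p of all genes belonged to AT3G15450, called SEN5, a protein with YGL and LRDR motifs whose transcript is known to rise in darkness (TAIR10.1 chr3:5212984-5214124, plus strand). It stood at 788.4, 835.7, 850.5 and 793.8 CPM in EtOH_1d and 656.1, 721.0 and 675.9 CPM in moc_1d. At 3 d it stood at 1116, 1152, 1224 and 1175 CPM in EtOH_3d and 789.5, 875.3 and 879.2 CPM in moc_3d. The groups were apart within each duration, while the 1 d ethanol and 3 d control libraries overlapped. The pooled log2 fold change was 0.36 ± 0.04 (SE, adjusted p = 9.87e-08). With the duplicated library kept as moc_1d replicate 1, the adjusted p was 0.164. Its locus overlaps AT3G15460 on the other strand, and whether strand was used in counting is not given in the labels.

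TPS8 (AT1G70290) and TPS11 (AT2G18700) encode trehalose-phosphate synthase-like proteins of the class that is repressed by sugar. TPS8 had 48.2, 48.5, 50.2 and 46.1 CPM in EtOH_1d against 38.0, 37.5 and 35.3 CPM in moc_1d, and 66.6, 72.0, 72.2 and 69.8 CPM in EtOH_3d against 50.3, 54.8 and 56.4 CPM in moc_3d. Its groups were apart within each duration, with the same log2 fold change of 0.38 at 1 d and at 3 d and a pooled value of 0.38 ± 0.06 (adjusted p = 9.44e-05). TPS8 kept its call in all 25 alternative settings. TPS11 changed by 0.31 ± 0.07 (adjusted p = 0.015) and was apart within each duration. Unlike TPS8, it was not called with the duplicated library kept as moc_1d replicate 1.

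DYL1 (AT1G28330), a dormancy-associated protein, had 248.4, 273.7, 269.4 and 225.1 CPM in EtOH_1d against 201.6, 213.8 and 210.6 CPM in moc_1d. At 3 d it had 282.0, 312.2, 349.1 and 284.5 CPM in EtOH_3d against 212.0, 220.4 and 253.7 CPM in moc_3d. Each ethanol library lay above the controls of its own duration, and the pooled change was 0.35 ± 0.05 (adjusted p = 0.000123), called in all 25 alternative settings as well. BT2 (AT3G48360), a BTB and TAZ domain protein repressed by sugar, changed by 0.42 ± 0.07 (adjusted p = 0.002), at 137.0 to 162.1 CPM in EtOH_1d, 113.9 to 134.4 CPM in moc_1d, 223.1 to 278.4 CPM in EtOH_3d and 155.1 to 181.7 CPM in moc_3d. Its call was lost with the duplicated library kept as moc_1d replicate 1 (adjusted p = 0.528). bZIP1 (AT5G49450), a transcription factor downstream of SnRK1, changed by 0.34 ± 0.06 (adjusted p = 0.00155). Like BT2, it was not called with the duplicated library kept as moc_1d replicate 1. AT5G49448 carries the same count as bZIP1 in every library, so the values given for bZIP1 may belong to either.

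Other members of the list did not pass. DRM2 (AT2G33830), a relative of DYL1, had 535.0 to 978.4 CPM (median 656.8) in the 8 EtOH libraries and 372.5 to 527.0 CPM (median 437.8) in the 6 moc libraries. These ranges did not overlap, but the log2 fold change was 0.33 at 1 d and 0.84 at 3 d, and the pooled value of 0.58 ± 0.13 had an adjusted p of 0.142. SEN1, also called DIN1 (AT4G35770), a senescence-associated protein of the rhodanese family, had 0.56 ± 0.14 (adjusted p = 0.222). ASN1, also called DIN6 (AT3G47340), which makes asparagine from glutamine, had 0.52 ± 0.13 (0.236). DIN10 (AT5G20250), of the raffinose synthase family, had 0.32 ± 0.11 (0.449). Since the pooled fit holds 1 ethanol effect for both durations, a change that differs between them widens its error. For the mean of the separate 1 d and 3 d contrasts, which does not hold 1 effect, 10 members of the list were called, against 6. Whether the single effect kept the members named here from passing was not tested.

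The summed level of the 25 members was 2981 to 3437 CPM in EtOH_1d against 2606 to 2884 CPM in moc_1d, and 3993 to 4688 CPM in EtOH_3d against 2744 to 3014 CPM in moc_3d. The sums were apart within each duration. SEN5 and DRM2, both given above, weigh heavily in them, with medians of 983.3 and 656.8 CPM in the EtOH libraries. The median member changed by 0.18 at 1 d and 0.42 at 3 d. Leaving out EtOH_3d replicate 2 and moc_3d replicate 1 gave 5 called members and a median of 0.25. With the duplicated library kept as moc_1d replicate 1, or with all 16 columns, TPS8 and DYL1 were the 2 members called. The medians were 0.26 and 0.25.

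**Figure D2:**
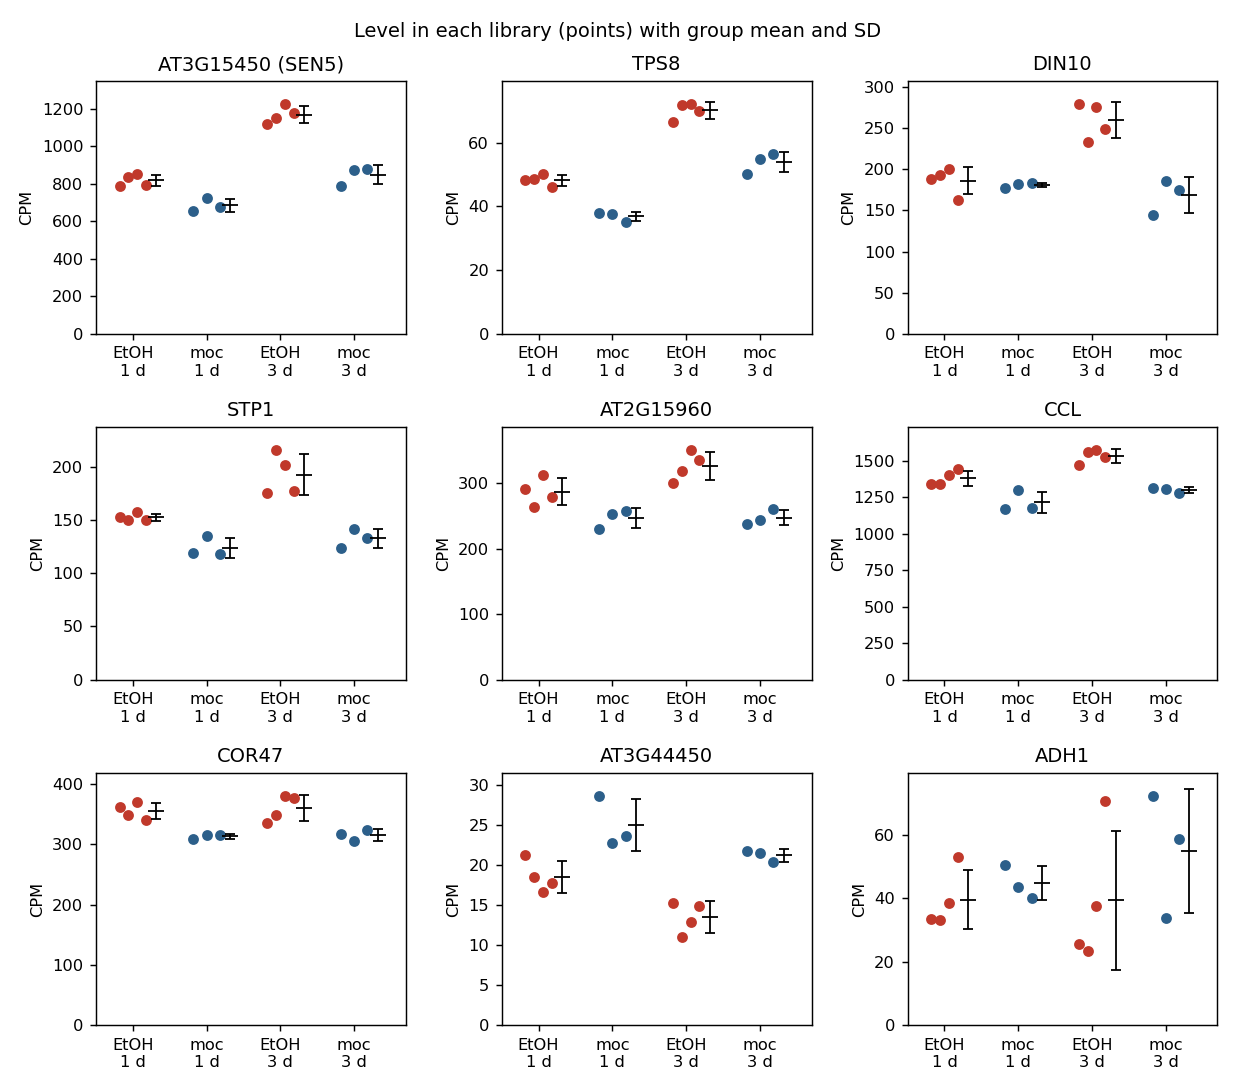
Level in CPM of 9 genes in each of the 14 libraries (points), with the mean and SD of each group (bars), ethanol in red and control in blue, the groups ordered as EtOH 1 d, moc 1 d, EtOH 3 d and moc 3 d. In STP1, AT2G15960, CCL and COR47 every ethanol library lies above every control library; DIN10 is apart at 3 d only, AT3G44450 is lower with ethanol within each duration, and ADH1 overlaps in both.

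Among sugar transporters, 1 of 18 tested genes was called, where 0.375% of all genes were. STP1 (AT1G11260), a hexose-proton symporter of the plasma membrane (TAIR10.1 chr1:3777236-3780823, plus strand), had 153.0, 150.1, 157.3 and 149.6 CPM in EtOH_1d against 118.7, 134.7 and 118.4 CPM in moc_1d. At 3 d it had 175.6, 216.0, 202.1 and 177.4 CPM in EtOH_3d against 123.3, 141.7 and 133.0 CPM in moc_3d. All 8 ethanol libraries lay above all 6 control libraries, and the pooled change was 0.41 ± 0.05 (adjusted p = 1.88e-06). The gene overlaps AT1G11270 on the other strand by 314 nt of its last 500 nt. The adjusted p was 0.0775 with the duplicated library kept as moc_1d replicate 1.

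Other genes with complete separation of the 8 from the 6 libraries were of mixed function. AT2G15960, annotated as a stress-induced protein, had 290.6, 263.9, 312.8 and 278.2 CPM in EtOH_1d, 229.2, 252.6 and 257.0 CPM in moc_1d, 299.6, 318.1, 350.5 and 335.2 CPM in EtOH_3d and 238.0, 243.7 and 259.6 CPM in moc_3d. Its change was 0.31 ± 0.05 (adjusted p = 8.99e-05). CCL (AT3G26740), a clock-regulated gene with a short-lived transcript, had 1340 to 1577 CPM (median 1457) in EtOH and 1172 to 1316 CPM (median 1289) in moc, a change of 0.21 ± 0.04 (adjusted p = 0.000763). AT1G80440, a kelch-repeat F-box protein of the KMD family, whose members mark type-B response regulators and phenylalanine ammonia-lyase for breakdown, had 181.3 to 208.4 CPM (median 194.3) in EtOH and 146.0 to 173.9 CPM (median 163.2) in moc. Its change was 0.27 at either duration and 0.27 ± 0.05 pooled (adjusted p = 0.000394). These 3 genes kept their calls in all 25 alternative settings, as did AT1G23880, of the NHL domain family (0.65 ± 0.12, adjusted p = 0.0018). CCL shares 208 nt of its last 500 nt with AT2G13820 at 95% identity or more. AT1G23880 overlaps AT1G23890 on the other strand.

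AT1G23880 was a gene of low level, at 10.5 to 15.2 CPM (median 12.7) in EtOH and 6.40 to 9.02 CPM (median 8.10) in moc, without overlap. The largest change of all called genes was that of AT2G43445, an F-box protein, at 0.82 ± 0.17 (adjusted p = 0.0101). It had 5.35 to 6.88 CPM (median 6.57) in EtOH and 2.33 to 4.74 CPM (median 3.51) in moc, also without overlap, and missed the threshold without moc_3d replicate 4 (adjusted p = 0.0573). AT1G49500, annotated as related to a subunit of the transcription factor TFIID, separated in the same way, with 408.1 to 573.3 CPM (median 440.9) in EtOH and 344.6 to 382.9 CPM (median 370.2) in moc, and a change of 0.31 ± 0.05 (adjusted p = 7.76e-05). AT2G20670, a protein of the DUF506 family, was apart within each duration and changed by 0.30 ± 0.05 (adjusted p = 8.99e-05). Of the other large changes, AT3G22260, a cysteine proteinase, had 0.63 ± 0.14 (adjusted p = 0.015), P1R3 (AT3G29370) 0.52 ± 0.13 (0.0395) and OFP15 (AT2G36050), of the ovate family of growth repressors, 0.46 ± 0.10 (0.015), at means of 9.89, 13.6 and 17.9 CPM in EtOH and 6.38, 9.55 and 13.1 CPM in moc. These 3 overlapped over all libraries and lost their calls in 4, 8 and 4 of the fits that leave out 1 library, moc_1d replicate 2 and EtOH_3d replicate 3 each time among them, with adjusted p up to 0.0925, 0.184 and 0.12. With the duplicated library kept as moc_1d replicate 1, all genes of this paragraph but AT1G23880 lost their calls. The adjusted p was then 0.0627 for AT2G43445, 0.052 for AT1G49500, 0.391 for AT2G20670, 0.127 for AT3G22260, 0.66 for P1R3 and 0.821 for OFP15. The change of OFP15 was then 0.26 and that of P1R3 0.35, and with all 16 columns they were 0.19 and 0.26.

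Some of the other higher genes are given here, named after their values were seen. The membrane-anchored ubiquitin ligase RMA1 (AT4G03510) had 0.33 ± 0.07 (adjusted p = 0.00339), with all ethanol libraries above all controls. A further member of the KMD family, AT3G59940, had 0.20 ± 0.05 (0.039). PORA (AT5G54190), a light-dependent enzyme of chlorophyll synthesis, had 0.39 ± 0.08 (0.0106), and LHB1B1 (AT2G34430), a light-harvesting protein of photosystem II, 0.16 ± 0.04 (0.015). PAR1 (AT2G42870), a repressor of shade responses, had 0.31 ± 0.08 (0.0395). PSK4 (AT3G49780), the precursor of a peptide growth factor, had 0.41 ± 0.08 (0.015), and TDT (AT5G47560), which carries malate across the vacuole membrane, 0.29 ± 0.06 (0.015). All of these rose with ethanol. They are examples, and several of the higher genes not named encode uncharacterized proteins. The calls of the genes of this paragraph were not followed singly through the alternative settings. Of all 69 pooled calls, 35 were also made with the duplicated library kept as moc_1d replicate 1. Without EtOH_3d replicate 2 and moc_3d replicate 1, 38 of the 69 were made.

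Single members of other lists also rose, where 0.331% of all genes were called higher. BXL2 (AT1G02640), a cell wall xylosidase, was the only called gene of 12 cell wall sugar genes, at 0.42 ± 0.10 (adjusted p = 0.0454), and NIA1 (AT1G77760), a nitrate reductase, the only one of 15 nitrogen genes, at 0.23 ± 0.06 (0.0479). NIA1 changed by 0.10 at 1 d and 0.38 at 3 d. Both genes lay near the threshold. Of the 14 fits that leave out 1 library, BXL2 kept its call in those without moc_1d replicate 3 or EtOH_1d replicate 1, 3 or 4, and had an adjusted p of 0.0632 to 0.188 in the other 10. NIA1 kept its call without moc_1d replicate 4 or EtOH_1d replicate 4, and had 0.0502 to 0.276 in the other 12. The median of the cell wall list was 0.09 and that of the nitrogen list -0.03.

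Ethanol lowered 8 genes. AT3G44450, of unknown function, had 21.3, 18.5, 16.7 and 17.7 CPM in EtOH_1d against 28.6, 22.7 and 23.6 CPM in moc_1d, and 15.3, 11.0, 12.9 and 14.9 CPM in EtOH_3d against 21.8, 21.4 and 20.3 CPM in moc_3d. It was lower within each duration and changed by -0.51 ± 0.09 (adjusted p = 0.00136), and the adjusted p was 0.074 with the duplicated library kept as moc_1d replicate 1. FAF3 (AT5G19260), of a protein family that affects shoot meristem size, had 4.70 to 6.56 CPM (median 6.08) in EtOH and 6.70 to 13.0 CPM (median 8.52) in moc, the only called gene whose ethanol libraries all lay below all controls. Its change was -0.59 ± 0.15 (adjusted p = 0.0464), and the adjusted p was 0.221 without moc_1d replicate 2, 0.225 without moc_3d replicate 1, 0.128 without moc_3d replicate 4, 0.152 without EtOH_3d replicate 3 and 0.056 to 0.0871 without EtOH_1d replicate 2 or 3 or EtOH_3d replicate 1, 2 or 4.

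MYB28 (AT5G61420), the transcription factor that drives aliphatic glucosinolate synthesis, changed by -0.29 ± 0.07 (adjusted p = 0.0232). It had 35.1 to 44.7 CPM (median 39.0) in EtOH and 44.2 to 52.6 CPM (median 46.9) in moc, apart within each duration. Its adjusted p was 0.0723 without moc_1d replicate 4, 0.0546 without EtOH_1d replicate 2, 0.144 without moc_3d replicate 2 and 0.0653 without EtOH_3d replicate 3. None of the other 18 tested glucosinolate genes was called, and the list's median was -0.05. The other lower genes were MS2 (AT3G03780), a methionine synthase (-0.29 ± 0.06, adjusted p = 0.0129), VTC4 (AT3G02870), of ascorbate synthesis (-0.28 ± 0.06, 0.0173), the aspartyl protease AT3G61820 (-0.28 ± 0.06, 0.0101), the glyoxalase GLX1 (AT1G11840, -0.21 ± 0.05, 0.0302) and the plastid chaperonin subunit CPN60A (AT2G28000, -0.19 ± 0.05, 0.0339). The log2 fold change of MS2 was -0.14 at 1 d and -0.45 at 3 d, and that of GLX1 was -0.07 at 1 d and -0.34 at 3 d. Each of these 5 lost its call without at least 1 single library, as the closing section gives. In a fit with the replicate number as a block, 7 of the 8 lower genes, all but AT3G44450, were not called.

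Transcripts of the chloroplast genome, which encodes parts of the photosystems, Rubisco and the plastid ribosome, formed the largest called group. Of 88 counted genes, 86 were tested, 7 were called higher (8.14%, against 0.331% of all genes) and none lower, and 79 estimates were positive and 7 negative. The median was 0.31, against 0.00 over all genes, and 39 members (45.3%) had an unadjusted p under 0.05, all with a positive change, against 4.53% of all genes. The chloroplast share of all counts was 2.28%, 2.05%, 1.53% and 2.01% in EtOH_1d, 1.83%, 1.74% and 1.59% in moc_1d, 1.78%, 1.92%, 1.61% and 1.53% in EtOH_3d and 1.08%, 1.33% and 1.497% in moc_3d. The shares overlapped at 1 d and were apart at 3 d, where the lowest share was that of moc_3d replicate 1. Their part in the changes of single chloroplast genes was not tested, and these genes are not independent of each other. How completely a method that reads near the 3′ end samples chloroplast transcripts was not tested either.

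The 7 called genes were of low level, with means of 11.5 to 40.3 CPM and changes of 0.41 to 0.62. ATCG00280 had 54.5, 47.9, 47.2 and 58.2 CPM in EtOH_1d against 37.2, 43.4 and 30.2 CPM in moc_1d, and 38.3, 35.5, 37.2 and 35.8 CPM in EtOH_3d against 28.2, 28.5 and 32.2 CPM in moc_3d. It was apart within each duration, at 0.41 ± 0.07 (adjusted p = 0.00155). ATCG00530 (0.51 ± 0.10, adjusted p = 0.00175) and ATCG00510 (0.51 ± 0.10, 0.0033) were apart at 1 d and overlapped at 3 d, and these 3 kept their calls in all 25 alternative settings. The others were ATCG00770 (0.62 ± 0.12, 0.00429), ATCG00120 (0.44 ± 0.09, 0.0101), ATCG00490 (0.41 ± 0.08, 0.0117) and ATCG00150 (0.55 ± 0.13, 0.0184), whose call was lost in 5 fits that leave out 1 library, without moc_1d replicate 2 or 4, EtOH_1d replicate 4 or moc_3d replicate 1 or 2 (0.0545 to 0.103). The calls of ATCG00120 and ATCG00490 were not followed singly through the alternative settings. The 5 chloroplast genes with a mean of at least 1000 CPM held 63.1% of the chloroplast CPM, changed by 0.20 to 0.39, and none was called.

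The count of called chloroplast genes moved with the libraries used. It was 4, with a median of 0.24, without EtOH_3d replicate 2 and moc_3d replicate 1, 12 without EtOH_1d replicate 3 or without moc_3d replicate 4, and 12 with all 16 columns. Of 122 mitochondrion-encoded genes, 18 were tested and none was called, with a median of 0.11. Among 23 listed nuclear photosynthesis genes the median was 0.02 and none was called; LHB1B1 and PORA, given above as higher, are not on that list.

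**Figure D3:**
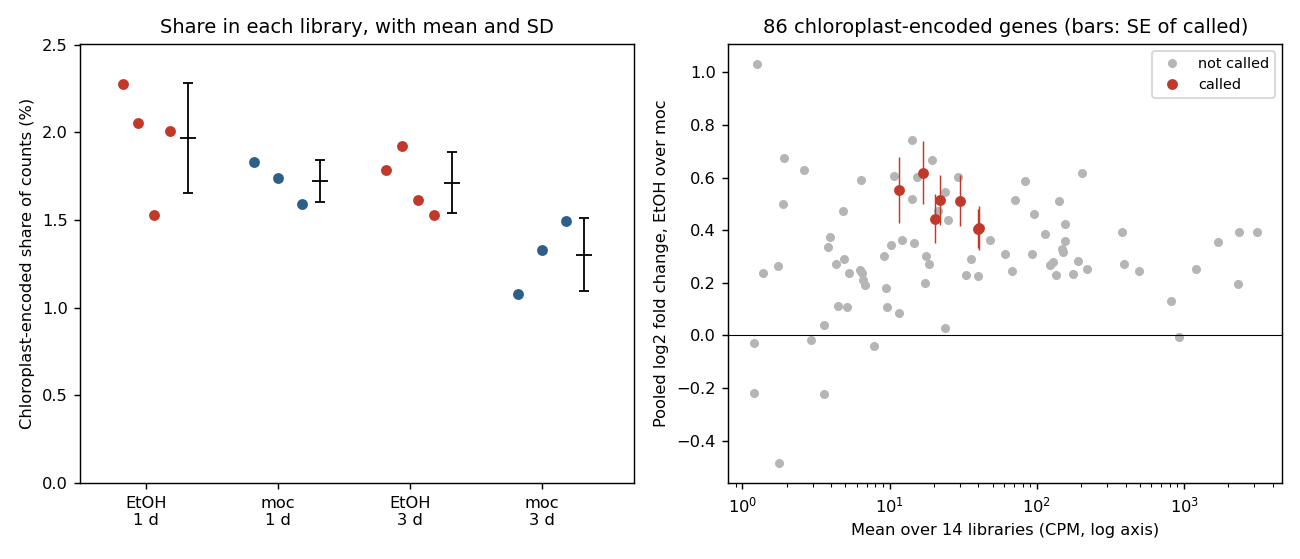
The left panel plots the chloroplast-encoded share of counts (percent) in each library, with the mean and SD of each group, and shows ethanol and control overlapping at 1 d and apart at 3 d. The right panel plots the pooled log2 fold change (EtOH over moc) of 86 chloroplast-encoded genes against their mean level in CPM on a log axis, with SE bars on the 7 called genes, which lie between 11.5 and 40.3 CPM.

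The 250 bases before the annotated start of the higher nuclear genes were searched for short motifs, on both strands. Of the 54 such genes 53 have an entry in the annotation, and 18244 tested genes served as the comparison. AAAATATCT, the evening element of clock-regulated promoters, stood in 8 of the 53 (15.1%) and in 2.54% of all. TATCCA, known from sugar-repressed amylase promoters of rice, stood in 16 (30.2%) and in 14.4% of all. ACGTG, the core that many bZIP proteins bind, stood in 14 (26.4%) and in 23.7% of all, which includes each match of the G-box CACGTG, found in 2 (3.77%) and in 7.38% of all. CCGAC, the core bound by cold-induced CBF proteins, stood in 8 (15.1%) and in 12.9% of all. These shares are descriptions of the letters and were not tested.

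The genes with the evening element letters were CXXS1, AT1G76590, MEE14, AT2G15960, CCL, AT3G59940, AT5G44260 and PORA. The promoter of AT2G15960 is shown for its 2 copies, those of CCL, AT5G44260 and PORA because they also hold TATCCA, and that of STP1 as the sugar transporter with TATCCA alone. They are RefSeq sequences of build TAIR10.1, written 5′ to 3′ along the gene's strand, with AAAATATCT, TATCCA and ACGTG or their reverse complements in capitals. AT2G15960 is at chr2:6946846-6947095 (plus strand), CCL at chr3:9827432-9827681 (plus), AT5G44260 at chr5:17831337-17831586 (minus), PORA at chr5:21992815-21993064 (minus) and STP1 at chr1:3776986-3777235 (plus).
AT2G15960: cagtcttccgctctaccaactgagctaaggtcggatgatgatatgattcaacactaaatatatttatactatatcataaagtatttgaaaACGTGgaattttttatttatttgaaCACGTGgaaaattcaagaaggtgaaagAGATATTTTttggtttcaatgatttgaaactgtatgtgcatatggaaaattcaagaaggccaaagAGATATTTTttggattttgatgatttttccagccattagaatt
CCL: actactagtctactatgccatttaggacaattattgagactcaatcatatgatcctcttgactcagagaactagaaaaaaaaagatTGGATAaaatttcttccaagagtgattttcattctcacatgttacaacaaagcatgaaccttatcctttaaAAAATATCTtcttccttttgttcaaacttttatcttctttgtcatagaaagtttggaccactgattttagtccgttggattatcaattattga
AT5G44260: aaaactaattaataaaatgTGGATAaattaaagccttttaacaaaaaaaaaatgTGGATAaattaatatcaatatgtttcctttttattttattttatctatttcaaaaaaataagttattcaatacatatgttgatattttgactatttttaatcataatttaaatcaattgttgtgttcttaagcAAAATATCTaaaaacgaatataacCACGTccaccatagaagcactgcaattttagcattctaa
PORA: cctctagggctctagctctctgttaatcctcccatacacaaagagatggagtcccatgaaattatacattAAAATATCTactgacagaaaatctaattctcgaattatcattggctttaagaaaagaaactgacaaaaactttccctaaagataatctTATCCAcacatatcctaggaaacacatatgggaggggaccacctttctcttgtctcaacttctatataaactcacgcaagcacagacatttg
STP1: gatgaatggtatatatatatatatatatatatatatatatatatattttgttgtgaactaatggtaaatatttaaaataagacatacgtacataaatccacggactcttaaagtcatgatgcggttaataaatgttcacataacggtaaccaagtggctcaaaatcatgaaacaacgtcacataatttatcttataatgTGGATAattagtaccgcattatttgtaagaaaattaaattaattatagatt
AT5G44260, a zinc finger protein of the C3H type, had 33.7, 30.9, 34.4 and 32.8 CPM in EtOH_1d against 20.1, 27.2 and 24.8 CPM in moc_1d, and 37.9, 42.7, 35.4 and 36.0 CPM in EtOH_3d against 32.9, 31.1 and 21.2 CPM in moc_3d. It was apart within each duration and changed by 0.45 ± 0.08 (adjusted p = 0.002). Its call was not followed singly through the alternative settings. PORA was apart at 1 d, at 30.0 to 42.4 CPM in EtOH_1d and 25.6 to 28.4 CPM in moc_1d, and overlapped at 3 d, at 23.6 to 32.3 CPM in EtOH_3d and 21.6 to 23.8 CPM in moc_3d.

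The genes that handle ethanol itself did not pass. None of 15 ethanol and acetate genes was called, and their median was 0.01. ADH1 (AT1G77120), the alcohol dehydrogenase, had 33.4, 33.3, 38.5 and 52.8 CPM in EtOH_1d against 50.5, 43.5 and 40.0 CPM in moc_1d, and 25.7, 23.4, 37.7 and 70.5 CPM in EtOH_3d against 72.3, 33.6 and 58.7 CPM in moc_3d. The groups overlapped at both durations, and the change was -0.31 ± 0.25 (95% interval -0.86 to 0.25). PDC1 (AT4G33070), a pyruvate decarboxylase, had -0.13 ± 0.22, ALDH2B4 (AT3G48000), a mitochondrial aldehyde dehydrogenase, 0.05 ± 0.05, and ACS (AT5G36880), acetyl-CoA synthetase, -0.04 ± 0.06. Intervals for ALDH2B4 and ACS were -0.04 to 0.15 and -0.16 to 0.09, narrower than that of ADH1. Of 18 tested hypoxia genes none was called, 14 were negative and the median was -0.10.

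The list of cold-regulated genes had 2 called members of 17 (11.8%, against 0.375% of all genes) and a median of 0.10. COR47 (AT1G20440), a dehydrin, had 335.9 to 380.8 CPM (median 355.5) in EtOH and 305.0 to 324.2 CPM (median 315.5) in moc, without overlap, and changed by 0.19 ± 0.04 (adjusted p = 0.015). It missed the threshold without moc_1d replicate 2 (0.0677) or moc_3d replicate 2 (0.0816). COR28 (AT4G33980), which links the clock and freezing tolerance, had 7.83 to 18.4 CPM (median 12.0) in EtOH and 5.87 to 11.5 CPM (median 7.75) in moc, a change of 0.61 ± 0.14 (adjusted p = 0.0209). Its groups overlapped at 1 d, and its adjusted p was 0.121 without moc_1d replicate 2, 0.0917 without moc_3d replicate 1, 0.0928 without EtOH_3d replicate 3 and 0.0588 to 0.0799 without moc_1d replicate 3, EtOH_1d replicate 3 or EtOH_3d replicate 4. COR15A (AT2G42540), a chloroplast protein of freezing tolerance, had -0.01 ± 0.23 (0.43 at 1 d and -0.45 at 3 d) and LTI78 (AT5G52310), also called RD29A, 0.02 ± 0.10. None of 14 tested cold transcription factors was called.

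Iron and flavonoid genes had mostly negative estimates, and none was called. Of 21 iron genes 18 had a negative estimate, with a median of -0.24, and 7 (33.3%) had an unadjusted p under 0.05 with a negative change, against 3.26% of all genes. Their summed level overlapped at 1 d, at 673.9 to 742.5 CPM in EtOH_1d and 697.7 to 813.3 CPM in moc_1d. It also overlapped at 3 d, at 565.8 to 697.3 CPM in EtOH_3d and 654.3 to 893.8 CPM in moc_3d. Whether these genes vary independently was not tested. FRO3 (AT1G23020), a ferric reductase, had the smallest p at -0.25 ± 0.10 (adjusted p = 0.423), and bHLH39 (AT3G56980), a regulator of iron uptake, the largest change at -0.94 ± 0.34 (adjusted p = 0.504). Of 15 flavonoid genes 13 were negative, with a median of -0.20, and FLS1 (AT5G08640), flavonol synthase, had -0.36 ± 0.09 (adjusted p = 0.0807). Among 12 chaperone genes of the endoplasmic reticulum 11 were negative, with a median of -0.06. In branched-chain amino acid breakdown, 12 of 17 were positive with a median of 0.12, 6 (35.3%) had an unadjusted p under 0.05 with a positive change, against 4.53% of all genes, and BCKDH_E1A2 (AT1G21400) had 0.31 ± 0.08 (adjusted p = 0.0907). Of 18 autophagy genes 15 were positive, with a median of 0.05, and 7 (38.9%) had such a p with a positive change, with ATG8E (AT2G45170) at 0.21 ± 0.06 (adjusted p = 0.0907). Of the 39 lists, 32 had no called member.

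**Figure D4:**
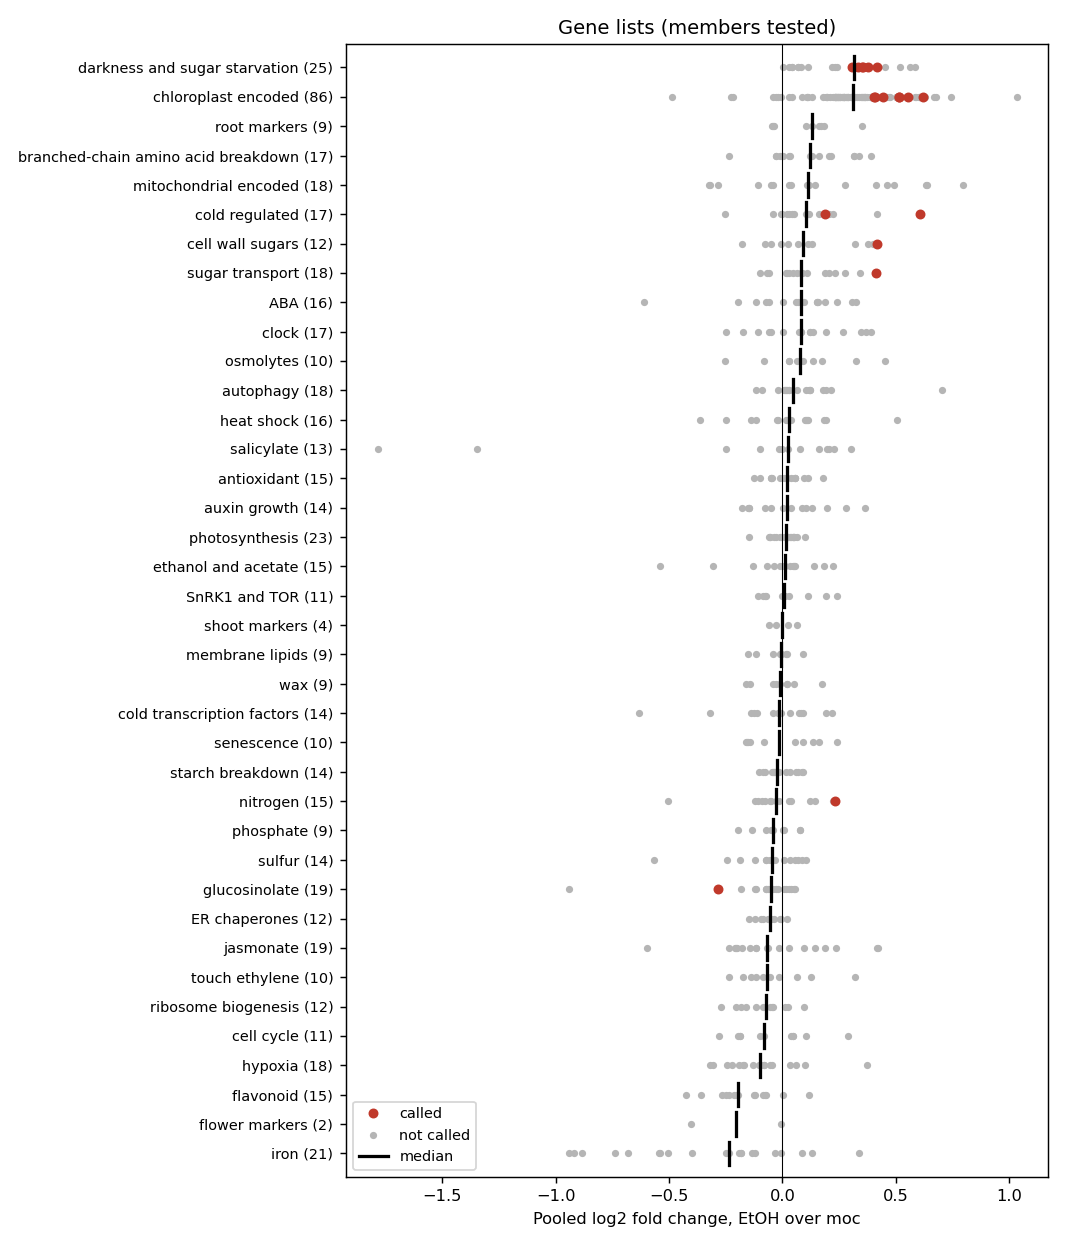
Pooled log2 fold change (EtOH over moc) of each tested member of 38 gene lists, one list per line with the number tested, called members in red, others in grey and the list median as a black bar. The darkness and sugar starvation list and the chloroplast-encoded genes have medians of 0.32 and 0.31, and the iron list the lowest at -0.24.

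A pooled value stands for a common effect only where the durations are alike. The test of the difference between the 3 d and the 1 d response called 8 of 18419 genes (0.0434%). None of the 69 called genes was among them, and their smallest adjusted p was 0.146. With so small a share, and a pooled fit that holds 1 effect for both durations, this absence cannot show a common effect. Of the 69, 14 (20.3%) had an unadjusted p under 0.05 for the difference, against 5.56% of all genes. The 14 include SEN5, BT2, STP1, BXL2, NIA1, MS2 and GLX1, each with the larger change at 3 d. DIN10 was among the 8, with 187.6, 193.2, 200.1 and 162.5 CPM in EtOH_1d against 177.9, 181.7 and 182.8 CPM in moc_1d, and 279.4, 233.7, 276.2 and 249.6 CPM in EtOH_3d against 144.9, 186.2 and 175.3 CPM in moc_3d. It overlapped at 1 d and was apart at 3 d, with changes of 0.04 and 0.62. The difference was 0.58 ± 0.11 (adjusted p = 0.0129), and it missed the threshold without moc_1d replicate 4 (0.0516), moc_3d replicate 1 (0.101) or EtOH_3d replicate 3 (0.0529). At the other end, AT1G80440, TPS8 and COR47 had differences of 0.01 ± 0.09, -0.00 ± 0.12 and 0.01 ± 0.08.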

How the data were processed

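Libraries were made from 200 ng of total RNA by Lasy-Seq, a method that reads transcripts near the 3′ end, per the labels' protocols. Tools named without versions in the submitters' processing notes are bcl2fastq, Trimmomatic, featureCounts, HISAT2 and DESeq2, and the build is TAIR10. The authors deposited raw counts for 27416 genes, with no normalization, and these were used as given; a table of counts scaled by size factors was not used. Columns were mapped by sample title.

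The test was that of edgeR 4.0.16 (R 4.3.3): filterByExpr by group, TMM scaling, and the quasi-likelihood F test of ethanol in an additive model with duration, 11 residual degrees of freedom, with Benjamini-Hochberg adjustment over 18419 genes and a threshold of 0.05. The biological coefficient of variation was 0.092. The difference between durations came from a model of 4 group means. Errors are SE of the log2 fold change. DESeq2 1.42.0 and limma-voom (limma 3.58.1) were alternatives. Intervals are at 95%, and 3 counts were taken as the floor, which covers counting error only.

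The members and the 39 gene lists were chosen with earlier results of these data known. Named genes are those with a mean of at least 5 CPM among the 10 largest rises, 10 largest falls and 10 smallest p, up to 3 called members of each list (up to 2 by p where none is called), and 11 genes always given; others were named after their values were seen. Symbols are those of TAIR10.1, which holds 26719 of the loci, and chloroplast codes are given without names. By BLAST 2.17.0 and position, 12 called genes overlap another counted gene and 7 share at least 100 nt at 95% identity in their last 500 nt, so their reads may be shared. A result on 1 named gene is not reported here.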

Additional observations from a re-analysis of the deposited data

Results flagged for a closer look

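The response of 8 genes differed between the durations, which also differed in age at start, by the test of the difference itself. Among the genes named above, DIN10 was one, with a difference of 0.58 between its log2 fold changes at 3 d and at 1 d.

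In 204 sets of 4 ethanol libraries, a single library lay far from the other 3 in 15 (7.35%), by a gap over range above 0.829, which chance alone gives in about 1 in 20. In EtOH_1d these were KCS1 at 11.7 CPM in replicate 3 (others 20.1 to 21.2), AT3G61820 at 78.5 in replicate 4 (67.8 to 68.7), SEN1 at 129.4 in replicate 4 (164.3 to 168.8), SAUR20 at 26.7 in replicate 4, CSD3 at 35.5 in replicate 2, AKINBETA1 at 75.4 in replicate 2, BIP1 at 121.9 in replicate 1 and LNK1 at 61.3 in replicate 2. In EtOH_3d they were AlaAT1 at 99.9 CPM in replicate 3, TIFY7 at 30.6 in replicate 2, RCA at 1895 in replicate 3, FLS1 at 21.8 in replicate 4 (others 15.8 to 15.9), PI at 1.06 in replicate 4, BIP1 at 124.6 in replicate 1 and LNK1 at 50.6 in replicate 1. Of these genes only AT3G61820 was called for the pooled effect, and its high library lay towards the control mean of 79.9 CPM.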

How the results depend on the processing

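No called gene among the 32 named changed direction in 25 alternative settings, 16 kept the call with each single library left out, and 9 kept it in every setting. The 69 calls of the pooled effect became 105 with DESeq2, 148 without a low-count filter, 37 with the duplicated library kept as moc_1d replicate 1 and 41 without EtOH_3d replicate 2 and moc_3d replicate 1, and 46 to 83 with 1 library left out. They were 70 with size factors by relative log expression, 65 with limma-voom, 69 with a mean of at least 5 CPM, 71 with the duplicated library kept as moc_3d replicate 3, 46 with all 16 columns and 95 for the mean of the separate contrasts. The 8 calls of the difference became 16 with DESeq2, 5 with limma-voom, 47 without a filter, 0 with 16 columns (788 at an unadjusted p under 0.05), 4 with the library kept as moc_1d replicate 1, 4 without EtOH_3d replicate 2 and moc_3d replicate 1 and 1 to 23 with 1 left out. The cause was not tested. The fits without both of these libraries were chosen after seeing the data.

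The labels do not say whether replicate numbers pair the libraries. Deviations of same-numbered libraries from their group means were nearly uncorrelated (correlations -0.08 to 0.03). Such values cannot show that no plate or batch was shared. A fit with the replicate number as a block called 53 genes, 38 of them shared with the 69, and 10 for the difference. Of the 32 named called genes 15 were not called in it, among them 7 of the 8 lower genes (all but AT3G44450), COR47, COR28 and ATCG00770.

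Single libraries decided some calls. The adjusted p of MS2 was 0.0555 without EtOH_3d replicate 3, that of AT3G61820 0.061 without moc_3d replicate 2, and that of VTC4 0.103 without moc_1d replicate 2 and 0.125 without moc_3d replicate 4. GLX1 lost its call in 9 such fits (0.0597 to 0.132) and CPN60A in 7 (0.0567 to 0.172). The 6 starvation calls became 11 with DESeq2 and 10 without a filter or for the mean of the contrasts, and the 7 chloroplast calls 20, 19 and 9, or 15 with the block. The difference of DIN10 had an adjusted p of 0.115 with 16 columns, 0.0722 with the duplicated library kept as moc_3d replicate 3 and 0.285 with the block. Depth, at 3695511 counts in the shallowest library, limits genes of low level, and some genes tested had medians near or under 3 counts.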

Other observations

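Several lists not described above held no called gene. Of 17 tested clock genes 12 were positive, with a median log2 fold change of 0.08, and the estimates ran both ways: LNK1 (AT5G64170), a coactivator of afternoon clock genes, had -0.25 ± 0.06 (SE, adjusted p = 0.0645), and FKF1 (AT1G68050), a blue-light receptor of flowering time, 0.39 ± 0.12 (0.201). Ribosome biogenesis genes had a median of -0.07 with 9 of 12 negative, and SWA1 (AT2G47990), of ribosomal RNA processing, had -0.27 ± 0.12 (0.581). In the cell cycle list, with a median of -0.08, MCM5 (AT2G07690), of DNA replication licensing, had -0.28 ± 0.11 (0.463).

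For some lists the medians of the separate durations had unlike signs. Jasmonate genes had 0.10 at 1 d and -0.22 at 3 d, sulfur genes 0.18 at 1 d and -0.26 at 3 d, and cold-regulated genes 0.24 at 1 d and -0.03 at 3 d. The wax list ran the other way, at -0.09 at 1 d and 0.09 at 3 d. None of these list differences was tested.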
